A study of Mus musculus with 27 samples.

Results

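Hox, Pax, T-box and GATA genes encode transcription factors that set position and cell fate in the embryo. All symbols made of Hoxa, Hoxb, Hoxc, Hoxd, Pax, Tbx or Gata and a number were taken from the array annotation, whatever their level. This gave 59 of the 18193 genes on the array: 33 Hox, 8 Pax, 12 Tbx and 6 Gata genes. Where a gene had several probe sets, the one with the highest mean was used. None of the 59 passed the test in G9a mutant D1 or D2 neurons, against 3.11% and 8.48% of all genes. Most of the 59 lay at background in controls, where 2.16% and 3.36% of all genes rose. None rose out of background, against 2.13% and 2.57% of all genes that lay there in controls. In some alternative settings up to 2 of the 59 passed in D2, and up to 1 left background there.

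Hox genes lie in 4 clusters and pattern the trunk, limbs and hindbrain, and the forebrain forms outside their territory. Pax factors (paired domain) act in eye, brain, muscle, B cells and pancreas, Tbx factors (T-box domain) in limb, heart and pituitary, and Gata factors (zinc fingers) in blood, heart and gut endoderm. In differentiated cells that do not use them, such genes are held silent mainly by Polycomb complexes, which mark histone H3 at lysine 27. G9a, encoded by Ehmt2, instead dimethylates histone H3 at lysine 9, another mark of silent genes.

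The study measured ribosome-bound mRNA in striatum of male mice, 2 to 5 months old, by translating ribosome affinity purification (TRAP), in which a GFP-tagged ribosomal protein (L10a) made in 1 neuron type is pulled down with its mRNA. The neurons were medium spiny neurons (MSNs), the projection neurons of the striatum, that express the dopamine receptor D1 (Drd1-TRAP) or D2 (Drd2-TRAP). Every mouse, controls included, carried G9a fl/fl, that is, 2 floxed copies of the gene. The G9a line was C57BL/6 and the BAC line 129/Sv, and the mixed offspring had 2 generations of backcrossing to C57BL/6. D1 mutants also carried Drd1-Cre and D2 mutants Drd2-Cre. Controls lacked Cre, so the effect of the deletion and that of the Cre transgene cannot be told apart. The tag and the Cre were driven by the promoter of the same receptor, and the Drd2 promoter is also active in cholinergic interneurons. All mice had 8 injections and were taken 2 h after the last, with cocaine given at 20 mg/kg/day. D1 controls comprised 2 saline and 4 cocaine arrays, D1 mutants 3 and 4, D2 controls 3 and 4, and D2 mutants 3 and 4. The labels give 2 to 4 mice per genotype and drug, so arrays were counted as mice. One D2 mutant cocaine array, replicate 4, is called a control in 1 label field and a mutant in its title and genotype, and it was kept as a mutant.

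The target showed the deletion on every array. Ehmt2 ranged from 9.95 to 10.74 (median 10.46, log2) in D1 controls and from 8.03 to 9.37 (median 8.72) in D1 mutants. In D2 controls it ranged from 10.67 to 11.01 (median 10.76), and in D2 mutants from 8.68 to 9.38 (median 8.96, the value of the array with conflicting labels). Mutant and control arrays did not overlap in either subtype. Ehmt2 fell by 1.79 (SE 0.133, limma adjusted p = 2.66e-10) in D1 and fell by 1.82 (SE 0.124, limma adjusted p = 2.68e-11) in D2. With the mean of all its probe sets in place of 1, the Ehmt2 difference was -1.03 in D1 and -1.10 in D2. Drd1 lay at 12.12 to 12.85 in D1 arrays and 9.71 to 10.65 in D2 arrays. Drd2 lay at 6.33 to 7.10 in D1 arrays and 12.28 to 13.60 in D2 arrays, so the subtype labels matched these defining genes. Array medians were 5.70 to 5.82. Ttr, a choroid plexus transcript, exceeded 9.5 on 3 arrays, which were replicate 3 of the D1 control cocaine, of the D1 mutant saline and of the D2 control cocaine groups. In these bulk samples, fewer cells of a type and less RNA per cell cannot be told apart.

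Most of the 59 genes lay at background. A value of 6 (log2) served as the floor of background. In the controls of each subtype 47 of the 59 lay at or under it and 12 above. Over all 8 groups 13 genes had a mean above the floor in some group, 10 in every group, and 9 on each of the 27 arrays (Hoxa3, Hoxa5, Hoxa7, Hoxa9, Hoxb3, Hoxc9, Hoxd9, Pax4 and Pax9). Another 40 exceeded it on no array. A value above 6 on at least 3 arrays was found for 13 of the 59 (22%), against 12017 of all 18193 genes (66.1%). By family, 8 of 33 Hox, 3 of 8 Pax, 1 of 12 Tbx and 1 of 6 Gata genes had a group mean above the floor.

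A value above the floor rested on single probe sets. Of the 13 genes, 4 had only 1 probe set (Hoxa7, Hoxc9, Hoxd9 and Pax4). The other 9 had 13 further probe sets, and for 8 of these genes every further probe set lay under the floor on average. Hoxc6 was the exception. For Hoxa5, which patterns the neck, lung and hindbrain, the probe set used read 7.93 to 8.61 over the arrays and the other 3.58 to 4.14. The Hoxa5 and Hoxc6 probe sets used are of the "_x_at" type, whose probes can match other transcripts. Whether such matching adds to their values was not tested. No gene's level was set against another's, because probe sets differ in their affinity.

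Among the Hox genes above the floor, mutants and controls overlapped throughout. Hoxa5 ranged from 8.15 to 8.61 (median 8.28) in D1 controls and from 8.02 to 8.57 (median 8.13) in D1 mutants. In D2 it ranged from 7.93 to 8.46 (median 8.27) in controls and from 8.08 to 8.55 (median 8.24) in mutants. The mutant arrays thus lay inside or beside the span of the controls. The Hoxa5 difference was -0.12 (SE 0.101, 95% interval -0.32 to 0.09, limma adjusted p = 0.754) in D1 and 0.05 (SE 0.095, limma adjusted p = 0.818) in D2. The other Hoxa5 probe set, under the floor, differed by 0.01 in D1 (limma adjusted p over all probe sets 0.993). In D2 it differed by -0.19 (0.103), with the opposite sign.

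Hoxa7, a gene of the thoracic region, ranged from 7.14 to 7.42 (median 7.17) in D1 controls and from 7.03 to 7.32 (median 7.15) in D1 mutants. Its D2 control arrays spanned 6.99 to 7.33 (median 7.20) and its D2 mutant arrays 6.66 to 7.33 (median 7.08). The lowest D2 mutant array lay below all D2 controls, and the rest lay among them. Hoxc9, which specifies thoracic motor neurons, spanned 7.08 to 7.28 (median 7.22) in D1 controls and reached 7.31 (median 7.14) in D1 mutants, with spans of 7.15 to 7.41 (median 7.33) in D2 controls and 7.10 to 7.35 (median 7.23) in D2 mutants. The medians of both Hoxa7 and Hoxc9 were below those of the controls in each subtype, within the spread of the arrays.

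Hoxa9, known for its part in blood progenitors, spanned 6.55 to 6.86 (median 6.75) in D1 controls, 6.61 to 6.87 (median 6.70) in D1 mutants, 6.64 to 6.90 (median 6.73) in D2 controls and 6.56 to 6.84 (median 6.80) in D2 mutants. Hoxd9, a limb and trunk gene, spanned 6.21 to 6.47 (median 6.37), 6.16 to 6.45 (median 6.31), 6.01 to 6.42 (median 6.29) and 6.06 to 6.50 (median 6.37) in the same order. Hoxa3 and Hoxb3, anterior genes expressed in the hindbrain, lay just above the floor. Hoxa3 spanned 6.12 to 6.27 in D1 controls, 6.01 to 6.38 in D1 mutants, 6.08 to 6.32 in D2 controls and 6.01 to 6.40 in D2 mutants. Hoxb3 spanned 6.10 to 6.41, 6.01 to 6.35, 6.07 to 6.52 and 6.04 to 6.36. Hoxc6, a gene of the forelimb and upper thoracic level, straddled the floor with spans of 6.01 to 6.35, 5.83 to 6.45, 5.71 to 6.23 and 5.72 to 6.29. In each of these genes the 4 spans overlapped.

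The Pax genes above the floor likewise overlapped between mutants and controls. Pax4, a pancreatic islet factor, spanned 6.42 to 6.86 (median 6.65) in D1 controls, 6.45 to 6.62 (median 6.56) in D1 mutants, 6.49 to 6.89 (median 6.63) in D2 controls and 6.45 to 6.73 (median 6.59) in D2 mutants. Pax9, which acts in tooth, thymus and skeleton, spanned 6.44 to 6.91 (median 6.64) in D1 controls and 6.31 to 6.63 (median 6.52) in D1 mutants. Its D2 spans were 6.58 to 6.86 (median 6.78) and 6.32 to 6.93 (median 6.67). The Pax9 difference in D1 was -0.18 (SE 0.084, limma adjusted p = 0.39). Pax5, the B-cell commitment factor, spanned 5.92 to 6.58 (median 6.13) in D1 controls, 5.84 to 6.17 (median 6.08) in D1 mutants, 5.77 to 6.32 (median 6.10) in D2 controls and 5.62 to 6.09 (median 5.98) in D2 mutants. Its differences were -0.14 (SE 0.096, limma adjusted p = 0.659) in D1 and -0.13 (SE 0.089, limma adjusted p = 0.422) in D2.

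Of the Tbx genes only Tbx19, the factor of pituitary corticotrophs, had a group mean above the floor. It spanned 5.98 to 6.24 (median 6.13) in D1 controls, 5.78 to 6.14 (median 6.01) in D1 mutants, 5.91 to 6.28 (median 6.08) in D2 controls and 5.78 to 6.21 (median 6.05) in D2 mutants. The D1 difference was -0.14 (SE 0.080, limma adjusted p = 0.553). Gata2, a factor of blood stem cells and of some midbrain and hindbrain neurons, spanned 5.77 to 6.22 (median 5.88) in D1 controls, 5.76 to 6.02 (median 5.84) in D1 mutants, 5.84 to 6.24 (median 5.94) in D2 controls and 5.85 to 6.01 (median 5.90) in D2 mutants.

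Pax6, Gata1, Gata3 and Tbx21, picked for their known roles in forebrain, blood or immune cells, had means under the floor in all groups. Pax6, a factor of eye, cortex and olfactory bulb neurons, spanned 5.42 to 6.07 (median 5.50) in D1 controls, 5.30 to 5.82 (median 5.50) in D1 mutants, 5.39 to 5.86 (median 5.52) in D2 controls and 5.29 to 5.55 (median 5.45) in D2 mutants. The differences were -0.08 (SE 0.101, limma adjusted p = 0.851) in D1 and -0.16 (SE 0.094, limma adjusted p = 0.328) in D2. The other Pax6 probe sets differed by -0.22 (limma adjusted p over all probe sets 0.471) to 0.04 in D1 and by -0.10 to -0.01 in D2. Gata1, the erythroid factor, was near the same median in all 4 sets (5.61, 5.60, 5.61 and 5.63). Gata3 and Tbx21, which set the helper T cell types, had differences of -0.04 and -0.09 in D1 and of -0.09 and 0.07 in D2.

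By family, the Hox differences ran from -0.18 to 0.12 in D1 and from -0.14 to 0.09 in D2. Those of the Pax genes ran from -0.18 to 0.06 and from -0.16 to 0.02, and those of the Tbx genes from -0.25 to 0.07 and from -0.15 to 0.07. For the Gata genes the range was -0.13 to 0.00 in D1 and -0.21 to -0.02 in D2. The median was -0.04 (Hox), -0.07 (Pax), -0.06 (Tbx) and -0.04 (Gata) in D1 and -0.06, -0.09, -0.04 and -0.11 in D2.

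**Figure D1:**
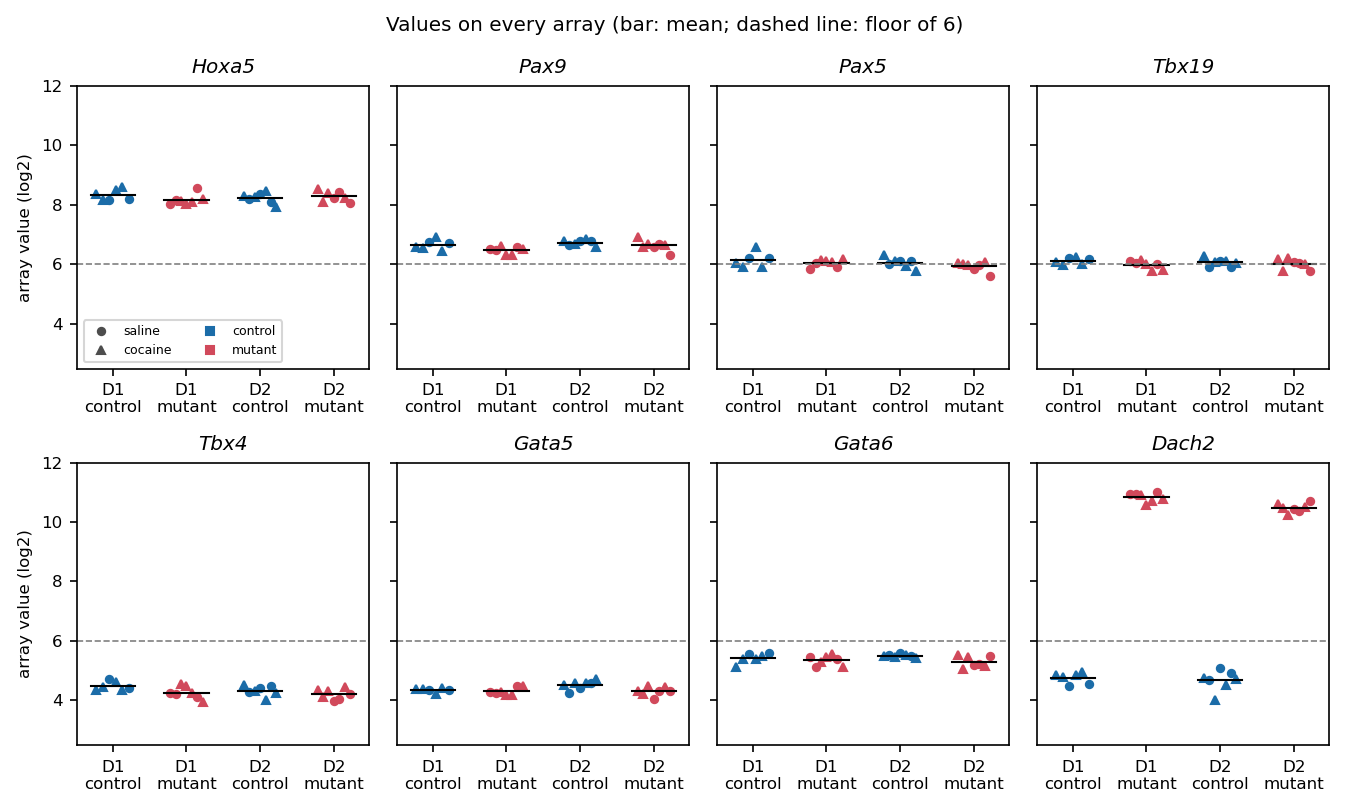
Values (log2) on every array of 7 of the genes and of Dach2, by subtype and genotype (circles saline, triangles cocaine; blue controls, red mutants; black bar, mean over arrays; dashed line, floor of 6). Mutant and control arrays overlap in each gene but Dach2, which lies at 4.03 to 5.09 in controls and 10.22 to 11.01 in mutants.

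Mutants were compared with controls in limma over all 18193 genes, with saline and cocaine weighted equally and Benjamini-Hochberg adjustment. At an adjusted p under 0.05, 565 genes were called in D1 (3.11%; 427 rose and 138 fell) and 1543 in D2 (8.48%; 1063 rose and 480 fell). Of the 59 genes 0 were called in D1 and 0 in D2. At an unadjusted p under 0.05 there were 3 in D1 (Tbx4, Pax9 and Hoxd11) and 2 in D2 (Gata5 and Gata6), all with lower means in mutants. Counted over all 102 probe sets of the 59 genes there were 4 in D1 and 6 in D2, also lower in mutants. Over all genes an unadjusted p under 0.05 was found for 2098 (11.5%) in D1 and 3862 (21.2%) in D2. Genes at or under the floor in controls changed less often. Of 6813 such genes in D1, 147 rose and 14 fell by the adjusted call, and 8.67% had an unadjusted p under 0.05. Of 6849 in D2, 230 rose and 71 fell, and the unadjusted share was 13.5%. Of the 47 among the 59 it was 4.26% in each subtype. No gene of the 59 had mutant arrays all above or all below the control arrays, against 1.93% of all genes in D1 and 3.44% in D2.

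The differences were small. They ran from -0.25 to 0.12 in D1 (median -0.05; all genes 0.00) and from -0.21 to 0.09 in D2 (median -0.06; all genes -0.01). The highest upper bound of any 95% interval among the 59 genes was 0.26 in D1 and 0.27 in D2. The lowest lower bound was -0.44 in D1 and -0.38 in D2.

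**Figure D2:**
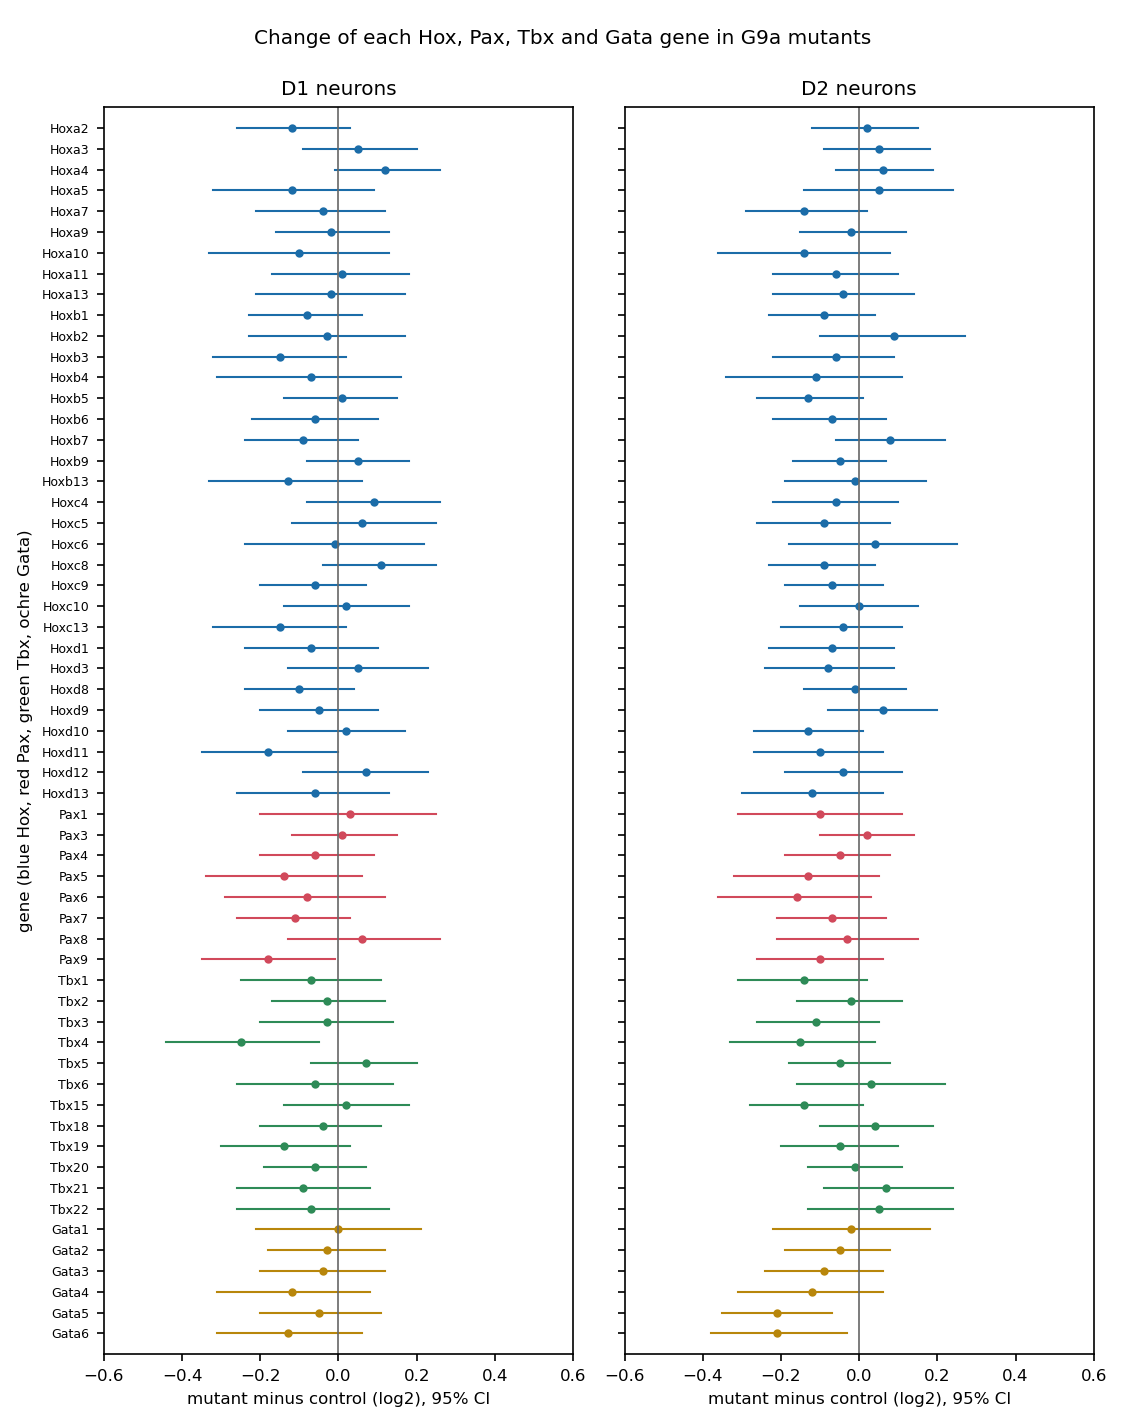
Mutant minus control difference (log2) of each of the 59 genes in D1 and D2 neurons, with its 95% interval from limma, in family order (blue Hox, red Pax, green Tbx, ochre Gata). Points lie between -0.25 and 0.12 in D1 and between -0.21 and 0.09 in D2, and 3 intervals in D1 and 2 in D2, all on the negative side, leave out 0.

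The count of lower means was above that of other genes. In D1, 42 of the 59 (71.2%) had a lower mean in mutants, against 51.2% of all genes. In D2 it was 46 of 59 (78%), against 52.2%. Among genes at or under the floor in controls it was 31 of 47 (66%) in D1, against 59.4% of all such genes. In D2 it was 38 of 47 (80.9%), against 64.3%. Of the 12 above the floor in controls, 11 had a lower mean in D1 and 8 in D2. With cyclic loess on top of the deposited values the share among the 59 was 67.8% in both subtypes, and with median centring 69.5% in D1 and 67.8% in D2. These shares are not set here against those of all genes under the same settings. Between subtypes, 32 genes were lower in both and 3 higher in both, counts that are not set against those of all genes. By family, lower means were found in D1 for 21 of 33 Hox, 5 of 8 Pax, 10 of 12 Tbx and 6 of 6 Gata genes, and in D2 for 25, 7, 8 and 6. Not one of these single differences passed the test in the limma fit, and no test of the shares was made.

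Tbx4, a factor of hindlimb and lung, had the smallest p in D1. It ranged from 4.34 to 4.72 (median 4.43) in D1 controls and from 3.96 to 4.56 (median 4.25) in D1 mutants, all under the floor and with overlap. Its D1 difference was -0.25 (SE 0.096, 95% interval -0.44 to -0.05, limma adjusted p = 0.244). In D2, where it ranged from 4.01 to 4.53 in controls and 3.99 to 4.44 in mutants, the difference was -0.15 (SE 0.090, limma adjusted p = 0.372). The other Tbx4 probe set differed by -0.02 in D1 and 0.04 in D2 (limma adjusted p over all probe sets 0.979 and 0.863).

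Pax9, given above, came next in D1, followed by Hoxd11, Hoxa4 and Hoxc13. Hoxd11, of the forearm and kidney, ranged from 4.28 to 4.96 (median 4.51) in D1 controls and 4.25 to 4.37 (median 4.33) in D1 mutants, a difference of -0.18 (SE 0.086, limma adjusted p = 0.428). Hoxc13, of hair and nail, ranged from 5.20 to 5.70 and 5.19 to 5.37, a difference of -0.15 (SE 0.082, limma adjusted p = 0.527). Hoxa4 had the highest positive difference of the 59 in D1, 0.12 (SE 0.065, limma adjusted p = 0.511), with 3.32 to 3.49 in controls and 3.46 to 3.64 in mutants. The Hoxa4 spans overlapped, under the floor. In D1 the other Hoxa4 probe set differed by -0.01 and the other Pax9 probe sets by -0.08 and 0.05.

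In D2 the smallest p values belonged to Gata5 and Gata6, factors of heart and gut endoderm. Gata5 ranged from 4.24 to 4.71 (median 4.57) in D2 controls and from 4.05 to 4.47 (median 4.31) in D2 mutants. Gata6 ranged from 5.42 to 5.59 (median 5.50) in D2 controls and from 5.06 to 5.52 (median 5.21) in D2 mutants. The D2 mutants of both genes reached lower than the controls, yet the spans overlapped and stayed under the floor. The differences were -0.21 (SE 0.070, 95% interval -0.35 to -0.07, limma adjusted p = 0.0631) for Gata5 and -0.21 (SE 0.085, 95% interval -0.38 to -0.03, limma adjusted p = 0.142) for Gata6. In D1 they were -0.05 for Gata5 and -0.13 for Gata6.

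The Gata5 call turned on single arrays and on the fit. Its adjusted p in limma was 0.0491 without D1 control cocaine replicate 3, 0.0461 without D1 mutant cocaine replicate 4, and 0.0339 without D2 control saline replicate 1. With array weights in limma both genes passed (adjusted p = 0.0278 for Gata5 and 0.044 for Gata6). The other Gata5 probe set differed by -0.10 (limma adjusted p over all probe sets 0.54) and the other Gata6 probe sets by -0.19 (0.15) and -0.09 (0.634). Markers of several cell types moved with genotype in D2. In limma 5 of 10 oligodendrocyte markers rose (Mbp, Mog, Mobp, Cnp and Pdgfra), and the list's mean was 6.86 to 7.54 in D2 controls and 7.55 to 7.92 in D2 mutants. Of 5 cholinergic interneuron markers 2 rose (Slc5a7 and Lhx8), and of 8 D1 MSN markers 3 rose (Drd1, Isl1 and Zfp521), while Drd2 fell. In D2 1 marker rose in each of the lists for all MSNs (Foxp2), GABAergic interneurons (Th), cortical neurons (Nrn1), astrocytes (Gja1), mural cells (Rgs5) and choroid plexus (Kl). Zfp521, Th and Kl rose in D1 as well, and no other listed marker was called there. Over all genes, 3.11% were called in D1 and 8.48% in D2. Of 5 blood, 7 endothelial and 8 microglial markers 0 were called in either subtype. The part of these cell types in the Gata5 and Gata6 differences was not tested.

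Another 3 genes stood among the lowest p values in D2. Hoxb5, of hindbrain and gut neurons, ranged from 4.25 to 4.53 in D2 controls and 4.13 to 4.41 in D2 mutants, a difference of -0.13 (SE 0.065, limma adjusted p = 0.261). Hoxd10, of hindlimb and lumbar motor neurons, ranged from 3.45 to 3.70 and 3.25 to 3.61, a difference of -0.13 (SE 0.069, limma adjusted p = 0.274). Tbx15, of skeleton and fat, ranged from 4.65 to 5.09 and 4.59 to 5.06, a difference of -0.14 (SE 0.072, limma adjusted p = 0.288). In all of these the arrays overlapped under the floor.

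Leaving background was counted as a mean at or under 6 in controls and above 6 in mutants. Of the 47 genes under the floor 0 did so in D1 and 0 in D2. Over all genes it was 145 of 6813 (2.13%) in D1 and 176 of 6849 (2.57%) in D2. Of those dim genes 147 (2.16%) rose in D1 and 230 (3.36%) in D2 by the limma call, with none of the 47 among them. The opposite crossing was seen once in each subtype, by values close to the floor: Tbx19 went from 6.14 to 6.00 in D1 and Pax5 from 6.06 to 5.92 in D2. This was 1 of the 12 genes above the floor in controls (8.33%) in each subtype. Over all genes, 128 of 11380 (1.12%) crossed downward in D1 and 189 of 11344 (1.67%) in D2. Without D2 control saline replicate 1, without D2 control cocaine replicate 3, or without the 3 arrays of high Ttr, 1 gene (Hoxc6) crossed upward in D2.

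The genome-wide counts show that these arrays recorded dim genes that rose. Afp, alpha-fetoprotein of fetal liver, ranged from 3.85 to 4.44 in D1 controls and from 10.61 to 11.12 in D1 mutants, and from 3.88 to 4.86 and 11.63 to 12.23 in D2. It was picked after its values were seen, to mark the scale beside the 59 genes.

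**Figure D3:**
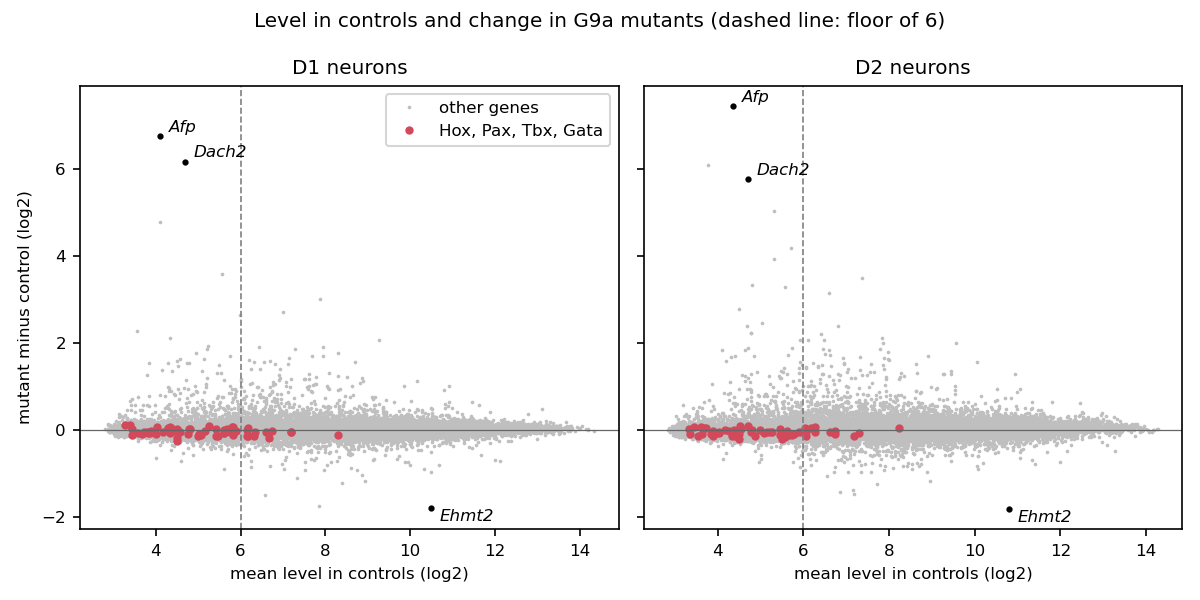
Mutant minus control difference (log2) against the mean level in controls (log2) for all 18193 genes in D1 and D2 neurons (grey, other genes; red, the 59 Hox, Pax, Tbx and Gata genes; dashed line, floor of 6). The red points stay between -0.25 and 0.12, while Afp and Dach2 start under the floor and rise by 6.76 and 6.17 in D1 and by 7.45 and 5.77 in D2, and Ehmt2 falls.

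The effect of G9a loss was also compared between subtypes. For the difference D2 minus D1, 117 genes (0.643%) were called in limma, 0 of them among the 59. An unadjusted p under 0.05 was found for 0 of the 59, against 9.98% of all genes and 5.36% of those with an overall mean at or under the floor. Values ran from -0.20 to 0.17. The ends were Hoxc8 at -0.20 (SE 0.098, limma adjusted p = 0.502) and Hoxb7 at 0.17 (SE 0.098, limma adjusted p = 0.607), both trunk patterning genes. Hoxc8 ranged from 3.20 to 3.41 in D1 controls, 3.18 to 3.68 in D1 mutants, 3.23 to 3.41 in D2 controls and 3.12 to 3.37 in D2 mutants. Hoxb7 ranged from 4.57 to 5.00, 4.51 to 4.78, 4.58 to 4.84 and 4.71 to 4.93 in the same order. The arrays of the 4 sets overlapped for each.

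Between D1 and D2 control neurons, 3442 of all genes (18.9%) were called in limma, and 0 of the 59. The values ran from -0.19 to 0.19, and 2 of the 59 (3.39%) had an unadjusted p under 0.05, against 29.8% of all genes. Among genes with an overall mean at or under the floor it was 2 of 47 (4.26%), against 11.9% of all such genes. Of these 6805 dim genes, 214 were called higher and 139 lower in D1. Hoxb6 had the lower mean in D1 controls (3.69 to 4.23, median 3.84, against 3.92 to 4.17, median 4.02, in D2 controls), a difference of -0.19 (SE 0.077, limma adjusted p = 0.0836). Without D1 control cocaine replicate 3, whose Hoxb6 value of 4.23 was the highest, it passed with a limma adjusted p of 0.0199. It also passed without the 3 arrays of high Ttr (limma adjusted p = 0.0393) and with array weights (limma adjusted p = 0.00803). Hoxb13 was higher in D1 controls by 0.19 (SE 0.094, limma adjusted p = 0.166).

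Cocaine was compared with saline in each subtype and genotype. In limma 4 genes (0.022%) were called in D1 controls, 15 (0.0824%) in D1 mutants, 9 (0.0495%) in D2 controls and 0 (0%) in D2 mutants, where 863 genes had an unadjusted p under 0.05. Among the 59 it was 0 in each. Unadjusted p values under 0.05 were found for 4, 0, 1 and 1 of the 59 (6.78%, 0%, 1.69% and 1.69%), against 9.79%, 10.2%, 7.58% and 4.74% of all genes. Of the 47 with an overall mean at or under the floor it was 6.38%, 0%, 2.13% and 2.13%. All such dim genes had 5.57%, 6.61%, 3.47% and 4.11%, so the share of the 47 was above theirs in D1 controls and below it elsewhere. The pair with the smallest p in D1 controls is given as a description. In D1 controls Pax4 was at 6.42 and 6.52 with saline and at 6.79, 6.65, 6.86 and 6.65 with cocaine, a difference of 0.27 (SE 0.103, limma adjusted p = 0.369). Hoxb6 was at 3.69 and 3.71 with saline and 3.86, 3.82, 4.23 and 4.04 with cocaine, a difference of 0.29 (SE 0.116, limma adjusted p = 0.4). In both genes, which were picked by their p values, the cocaine arrays lay above the pair of saline arrays. How many of all genes do so was not counted. In D1 mutants the differences were 0.00 for Pax4 and -0.05 for Hoxb6.

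The spread of the 59 genes was that of dim genes in general. Their standard deviation within groups had a median of 0.138 (0.093 to 0.217), against 0.141 for the other genes at or under the floor and 0.148 for all genes. The range of the 8 group means had a median of 0.24 (0.06 to 0.48), and Tbx4 had the widest, 0.48. The median was 0.25 for the other genes at or under the floor and 0.33 over all genes. Per array 9 to 16 of the 59 lay above the floor. The count of 16 came from D1 control cocaine replicate 3, which also had the highest array median (5.82) and the highest mean over other dim genes (4.79).

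Genes that work with these factors were counted from lists. Of 8 Hox cofactors of the Pbx, Meis and Pknox type, 11 other homeobox genes of the Hox class (Evx, Cdx, Gsx and others) and 3 other T-box genes, 0 were called by limma in mutants of either subtype. Their medians were -0.02, -0.04 and -0.07 in D1 and -0.06, -0.04 and 0.00 in D2, beside 0.00 and -0.01 over all genes. Of 7 Gata cofactors 0 passed in D1 and 1 in D2, near the 8.48% of all genes called there. In D2 Zfpm1, which encodes the Gata partner FOG1, fell by 0.34 (SE 0.100, limma adjusted p = 0.0315). The median of the Gata cofactors was -0.08 in D1 and -0.10 in D2.

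The list of Pax network partners held a gene that rose in both subtypes. Dach2, a corepressor that works with Eya proteins beside Pax factors, ranged from 4.47 to 4.97 in D1 controls and from 10.56 to 11.01 in D1 mutants. In D2 it ranged from 4.03 to 5.09 in controls and from 10.22 to 10.70 in mutants. No mutant array came near a control array. Dach2 rose by 6.17 (SE 0.101, limma adjusted p = 7.56e-25) in D1 and by 5.77 (SE 0.094, limma adjusted p = 7.35e-25) in D2. Its paralog Dach1 rose by 0.51 (SE 0.161, limma adjusted p = 0.0471) in D2 and was at 0.21 (SE 0.172, limma adjusted p = 0.741) in D1. The other genes of this list of 11, the measured Eya and sine oculis homeobox genes, did not pass, and the list's median was -0.02 in each subtype.

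Of 18 Polycomb and Trithorax regulators, which keep Hox genes silent or active, 0 were called in D1 and 2 rose in D2 by the limma call, beside 3.11% and 8.48% of all genes called, so the D2 count was near the share of all genes. Jarid2, a subunit of the complex that methylates lysine 27, rose by 0.31 (SE 0.094, limma adjusted p = 0.0419), and Cbx8, a reader of that mark, by 0.40 (SE 0.077, limma adjusted p = 9.33e-04). The difference of these effects between subtypes did not pass (limma adjusted p = 0.614 for Jarid2 and 0.451 for Cbx8). The median of the list was 0.05 in D1 and -0.05 in D2. The catalytic subunits were at -0.04 (Ezh1) and 0.10 (Ezh2) in D1 and at -0.14 (Ezh1) and 0.20 (Ezh2) in D2, and neither was called.

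The genes flanking the Hox clusters were taken as the 5 nearest measured protein-coding genes on each side, by RefSeq gene order. Of these 40, 2 (5%) were called in D1 and 4 (10%) in D2, beside 3.11% and 8.48% of all genes. Beside the Hoxa cluster, Skap2 rose by 0.39 (limma adjusted p = 4.05e-04) in D2 and Tax1bp1 fell by 0.24 (limma adjusted p = 0.0387) in D1. Beside Hoxb, Skap1 rose by 0.52 (limma adjusted p = 0.00417) in D1 and by 0.49 (limma adjusted p = 0.002) in D2, and Snf8 rose by 0.32 (limma adjusted p = 0.012) in D2. Beside Hoxc, Cbx5, which encodes HP1 alpha, fell by 0.30 (limma adjusted p = 0.00128) in D2. Evx1 and Evx2, the homeobox genes next to Hoxa and Hoxd, were at 0.03 and -0.02 in D1 and at -0.11 and -0.03 in D2. None of the 9 Hoxa, 9 Hoxb, 7 Hoxc and 8 Hoxd genes between these flanks passed.

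Promoters were described by their CpG dinucleotides, which are dense at many Polycomb-bound and housekeeping promoters. RefSeq gave the 250 bases before the start for 37 of the 59 genes (build GRCm38.p6). The motif searched was CG, which reads the same on both strands. A window with over 50% G and C and an observed-to-expected CpG ratio over 0.6 was called CpG-rich. The count of CG had a median of 12 (1 to 35) in the 37 windows and of 13 (0 to 56) in the windows of 14449 genes. CpG-rich windows made up 17 of 37 (45.9%), against 49.2% of all. Among genes at or under the floor in D1 controls it was 14 of 29 of the Hox, Pax, Tbx and Gata genes (48.3%) and 23.8% of all. The dim genes that rose had 23.9% in D1 (n = 109) and 27.9% in D2 (n = 179).

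**Figure D4:**
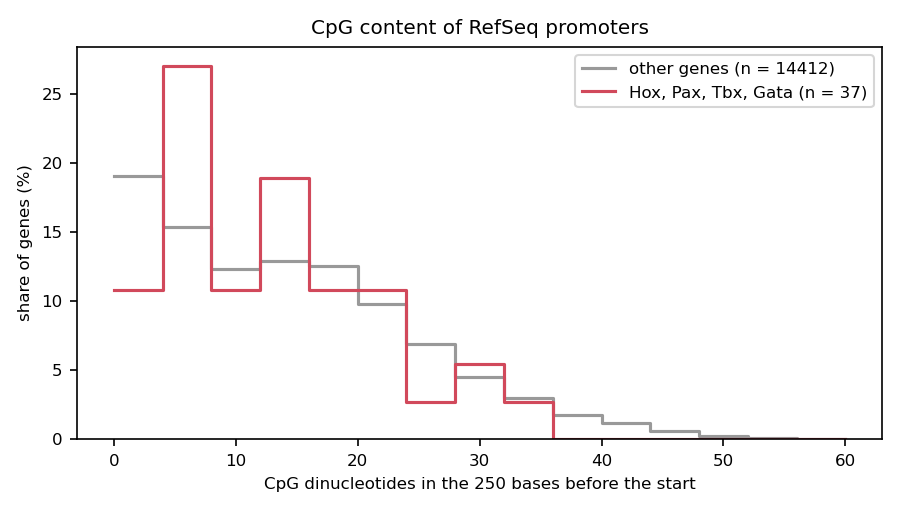
Share of genes (%) by the number of CpG dinucleotides in the 250 bases before the RefSeq start, for 37 Hox, Pax, Tbx and Gata genes (red) and other genes (grey), in bins of equal width. The red curve spans 1 to 35 with a median of 12 and lies over much of the grey one, whose values run from 0 to 56.

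Windows of 3 genes with results above are shown with CG in capitals, each 5′ to 3′ on the gene's strand: Hoxa5, the gene read above the floor, with 28 (chr6:52204588-52204837, minus strand), Tbx4, the lowest p in D1, with 6 (chr11:85896515-85896764, plus strand), and Gata5, the lowest p in D2, with 22 (chr2:180334680-180334929, minus strand).
Hoxa5: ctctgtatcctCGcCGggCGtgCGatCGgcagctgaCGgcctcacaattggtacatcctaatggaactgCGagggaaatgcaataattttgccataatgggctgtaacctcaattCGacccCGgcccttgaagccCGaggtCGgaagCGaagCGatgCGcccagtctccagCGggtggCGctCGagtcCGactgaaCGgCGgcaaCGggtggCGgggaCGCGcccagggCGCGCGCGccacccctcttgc
Tbx4: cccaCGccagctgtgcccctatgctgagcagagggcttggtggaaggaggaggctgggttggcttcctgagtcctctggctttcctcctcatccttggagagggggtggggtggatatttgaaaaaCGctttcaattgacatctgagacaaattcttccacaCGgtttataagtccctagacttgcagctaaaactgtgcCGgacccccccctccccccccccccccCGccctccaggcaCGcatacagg
Gata5: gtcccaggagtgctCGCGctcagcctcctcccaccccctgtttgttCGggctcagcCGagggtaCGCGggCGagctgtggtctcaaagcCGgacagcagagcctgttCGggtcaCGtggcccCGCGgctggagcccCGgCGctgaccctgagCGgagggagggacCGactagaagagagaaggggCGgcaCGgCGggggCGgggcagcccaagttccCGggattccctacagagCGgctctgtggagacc
CG pairs are spread through the Hoxa5 and Gata5 windows and are few in the Tbx4 window. None of the 3 genes passed the test, and no chromatin mark was measured at these sites here.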

How the data were processed

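Ribosome-bound RNA was measured on 27 Affymetrix whole-genome mouse arrays. Per the submitters' processing notes, the authors made the deposited log2 values by RMA, with Affymetrix Expression Console 1.1 as the program. The series' design text also names another Affymetrix program with global scaling of the scans. Precision is limited by the number of arrays. Of 45101 probe sets, 64 were controls, 34945 had 1 gene symbol, 932 several and 9160 none. The probe set with the highest mean stood for each of 18193 genes, with no filter on level.

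All arrays were fitted in limma 3.58.1 (R 4.3.3) with 8 group means (subtype by genotype by drug) and Benjamini-Hochberg adjustment over all genes per contrast. Scripts were tested on simulated data.

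The genes and lists were chosen with earlier results of these data known. Genes were named when called, when above the floor of 6 in a group, when crossing it, or when among the 5 smallest p values of a G9a contrast, and 24 met this. Hoxb6, Hoxb13, Afp and the flanking genes were named after their values were seen, and Pax6, Gata1, Gata3 and Tbx21 for their known roles. Alternatives covered probe set choice, filter, floor, centring, moderation, weights, block, covariates and each array left out.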

Additional observations from a re-analysis of the deposited data

Results flagged for a closer look

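Of 108 sets of 4 arrays (the 24 named genes, Ehmt2, the count of genes above the floor and the mean of the 59 genes, each in the cocaine groups), 3 held an array far from the other arrays of its group, against 5.4 that chance gives at 1 in 20. Gata5 read 4.22 in D1 control cocaine replicate 3, below the 4.39 to 4.41 of the other arrays of its group. Hoxa7 read 7.42 in the same array, above 7.16 to 7.20 in the others. Hoxa9 read 6.56 in D2 mutant cocaine replicate 2, below 6.80 to 6.84 in the others. D1 control cocaine replicate 3 is also the array with 16 of the 59 genes above the floor and 1 of the 3 with high Ttr. In none of the 59 genes did the difference of the G9a effect between subtypes pass the limma test.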

How the results depend on the processing

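The count of 0 genes called in D1 held in all 42 alternatives run, with 0.135 the lowest adjusted p (limma). For the D2 minus D1 difference it held in all 38, and for each cocaine contrast in all 39. In D2 it held in 37 of 42: array weights gave 2 (Gata5 and Gata6), the replicate number as a block gave 1 (Gata5, limma adjusted p = 0.0376), and leaving out single arrays gave 0 to 1. Same-numbered arrays did not deviate together in the median (correlations 0.02, 0.00, -0.04 and 0.09 for numbers 1 to 4), with single pairs from -0.40 to 0.48. Whether the numbers stand for a pairing or batch cannot be told from these values. For D1 against D2 controls, array weights and leaving out the arrays of high Ttr each gave 1 (Hoxb6), and leaving out single arrays gave 0 to 1. Leaving background in D2 gave 1 without the arrays of high Ttr (Hoxc6), 1 with the floor at 6.27, the 95th percentile of 39 odorant receptor genes (Hoxd9), and 0 to 1 without single arrays. In D1 it stayed at 0 in all 36. Ehmt2 stayed called in all 41 alternatives, between -2.28 (saline arrays alone) and -1.03 (mean of all probe sets) in D1 and between -1.91 and -1.10 (mean of all probe sets) in D2. The cause of these moves was not tested. With saline or cocaine arrays alone, a choice made after the data were seen, 0 of the 59 were called in either subtype. The 102 probe sets of the 59 genes, added likewise, gave 0 calls in each G9a contrast. Values near or under the floor limit what a small change can show.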
